A study of Mus musculus with 2 samples.

Results

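The let-7 genes of the mouse that stand apart from the clusters of miR-99 with miR-125 were examined in the adrenal gland of the newborn. Members were chosen by gene symbol: Mirlet7a-1, Gm24111, Mirlet7d, Mirlet7b, Mirlet7c-2, Mirlet7f-2, Mir98, Mirlet7g and Mirlet7i. The rule itself used no levels, but the choice was made with earlier results of these data known. All 9 were found among the 1973 microRNA (miRNA) gene rows, and 8 of them reached a mean of 10 CPM (counts per 1000000 counts of all miRNA genes). Mirlet7f-1 has no row of its own, and it was read from the opposite-strand counts of Gm24111, the row that lies across it. The samples were both adrenals of 2 pups of the strain B6NCrl at postnatal day 0, taken from the same dam, with no treatment named and sex not collected. Each pup gave 1 library of RNA below 30 nucleotides, and the libraries are biological replicates 1 and 2, called pup 1 and pup 2 here. The labels describe separate pups but carry a single donor identifier for both, so the spread between the libraries could be technical if that identifier meant 1 animal.

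The let-7 miRNAs are a family of short RNAs cut from hairpin precursors, first known from the developmental timing pathway of nematodes. A miRNA finds its target transcripts mainly through its seed, the bases 2 to 8 from its 5′ end, and lowers their stability and translation. Known let-7 targets include Hmga2, Lin28a, Igf2bp1 and Ras genes, and mature let-7 accumulates as embryonic tissues differentiate. The RNA-binding proteins LIN28A and LIN28B hold let-7 precursors back by binding their loops. In a gland that joins a steroid-producing cortex with a chromaffin medulla, let-7 is made by many cell types, so its level describes the whole tissue. In such bulk RNA, fewer cells of a type and less RNA per cell cannot be told apart.

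The mature 5p sequences (the miRNA from the 5′ side of the hairpin) of the members are shown because the family is defined by them and because their likeness decides which reads can be assigned to 1 gene. They are RefSeq sequences (GRCm38.p6), written 5′ to 3′ with the seed in capitals.
let-7a (Mirlet7a-1): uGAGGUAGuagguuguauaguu
let-7b (Mirlet7b): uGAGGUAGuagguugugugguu
let-7c (Mirlet7c-2): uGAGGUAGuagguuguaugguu
let-7d (Mirlet7d): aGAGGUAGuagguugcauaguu
let-7f (Mirlet7f-1 and Mirlet7f-2): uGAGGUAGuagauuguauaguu
let-7g (Mirlet7g): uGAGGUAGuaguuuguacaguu
let-7i (Mirlet7i): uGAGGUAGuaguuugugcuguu
miR-98 (Mir98): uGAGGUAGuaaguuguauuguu
All 8 sequences have 22 bases and the same seed, and 15 of the 22 positions are identical in all of them. Counted from 1 at the 5′ end and with let-7a as the reference, let-7c carries A19G and let-7b carries A17G and A19G. The form let-7f carries G12A, let-7d carries U1A and U16C, and miR-98 carries G11A and A19U. The pair let-7g and let-7i share G12U and U18C, and let-7i also has A17G and A19U. Of the 28 pairs of these sequences, 3 differ at 1 base and 8 at 2 bases. The nearest sequence to let-7b is let-7c, and the nearest to let-7i is let-7g.

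Copies of a mature sequence set the members apart. The let-7a, let-7c and let-7f sequences each occur in 2 RefSeq hairpins, whereas those of let-7b, let-7d, let-7g, let-7i and miR-98 each occur in 1 and are called single-hairpin here. The rest of the genome was not searched for them. The copies are shown with 5 hairpin bases before and 6 after the mature sequence, and capitals mark these flanking bases, which a read of the 5p arm must reach to tell the copies apart.
Mirlet7a-1: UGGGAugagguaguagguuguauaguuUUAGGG
Mirlet7a-2: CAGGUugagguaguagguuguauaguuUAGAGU
Mirlet7c-2: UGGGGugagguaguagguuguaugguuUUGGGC
Mirlet7c-1: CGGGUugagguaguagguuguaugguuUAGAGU
Mirlet7f-2: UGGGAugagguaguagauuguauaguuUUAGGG
Mirlet7f-1: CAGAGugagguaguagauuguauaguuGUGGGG
Directly before the mature sequence the copies differ at the first base in each of these pairs. Directly after it, the shared run is 1 base long in the let-7a and let-7c pairs and 0 in the let-7f pair, and single bases farther out coincide in places. The common run through the mature sequence is thus 23 bases for let-7a and let-7c and 22 for let-7f. Mirlet7a-2 and Mirlet7c-1 belong to the clusters of miR-99 with miR-125 and are not members. The 3p arms separate the let-7f copies, but Mirlet7a-1 and Mirlet7c-2 have the same 3p sequence, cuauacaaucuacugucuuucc. Reads placed at several loci were not counted in any gene row. The rows of the copied genes therefore hold only those of their reads that could be placed at 1 locus, and their counts are lower limits. Their CPM need not be, since the totals used for CPM leave out reads placed at several loci as well.

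The members lie at 5 loci on mm10, given here from GENCODE M21. On chromosome 13, Mirlet7a-1 (ENSMUSG00000065421.2, chr13:48538179-48538272), Mirlet7f-1 (chr13:48537829-48537917) and Mirlet7d (ENSMUSG00000065453.1, chr13:48536012-48536114) are exonic in the long noncoding RNA 6720427I07Rik on the minus strand. Gm24111 (ENSMUSG00000093232.1, chr13:48537825-48537921) is annotated on the plus strand and covers all 89 bases of Mirlet7f-1 with 4 more on each side. On chromosome 15, Mirlet7c-2 (ENSMUSG00000065608.1, chr15:85706603-85706697) is exonic in the noncoding transcript Lncppara, with Mirlet7b 621 bases downstream (chr15:85707319-85707403) and also exonic. Mirlet7f-2 (ENSMUSG00000065602.1, chrX:151912346-151912428) and Mir98 (ENSMUSG00000065536.2, chrX:151913214-151913321) are intronic in the ubiquitin ligase gene Huwe1, with 785 bases between them. The single genes are Mirlet7g (chr9:106178840-106178927), intronic in Wdr82, and Mirlet7i (chr10:122985640-122985724), which overlaps an exon of 1 of 2 transcripts of the pseudogene D630033A02Rik.

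Levels are deposited raw counts on the gene's own strand, scaled here to CPM over all miRNA gene rows of a library, which held 1131762 counts in pup 1 and 3327743 in pup 2. Reads placed at several loci numbered 785013 and 2032469 and lie outside these totals. The limit that a count of 0 allows, 3 counts, equals 2.65 CPM in the first library and 0.902 CPM in the second. Intervals are exact at 95% for counting error only, with each read taken as independent. Since PCR copies without molecular identifiers are not independent molecules, the intervals can be too narrow even for counting error. With 1 library per pup no difference has a replicate check, and no p-value is given.

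Among the members with a single-hairpin mature sequence, Mirlet7g and Mirlet7i were the most abundant and differed least between the pups. The copied genes cannot be ranked against them, since the counts in the copied genes' rows are lower limits. Mirlet7g had 67453 counts (59600 CPM) in pup 1 and 182161 counts (54740.1 CPM) in pup 2, a mean of 57170 ± 3436 CPM (SD, n = 2). Among the 1973 miRNA gene rows it ranked number 3 in both libraries, by counts that leave out multi-mapped reads and genes with no row. Mirlet7i had 56793 counts (50181 CPM) and 153053 counts (45993 CPM), with a mean of 48087 ± 2961 CPM (SD, n = 2), and ranked number 5 in both. The pups' values for each gene lie close together, and the lower Mirlet7g value is above the higher Mirlet7i value. Their ratio was nearly the same in both libraries. Mirlet7i had 0.842 counts per Mirlet7g count (95% interval 0.833 to 0.851) in pup 1, and in pup 2 it had 0.840 (0.835 to 0.846).

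Mirlet7d and Mirlet7b, also abundant, were both higher in pup 1. Mirlet7d, whose mature form is the only one of the family here that starts with A, had 49794 counts (43997 CPM) in pup 1 and 98157 counts (29497 CPM) in pup 2, a mean of 36747 ± 10253 CPM (SD, n = 2). Mirlet7b had 35282 counts (31174 CPM) in pup 1 but 41233 counts (12391 CPM) in pup 2, although the second library was 2.94 times as deep. Its mean was 21783 ± 13282 CPM (SD, n = 2), the widest spread of the 9 rows relative to the mean among members above 10 CPM. Among the same gene rows, the rank of Mirlet7b was 12 in pup 1 and 23 in pup 2, and that of Mirlet7d was 6 and 12.

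Mir98, the member that is not named let-7, had 11656 counts (10299 CPM) and 28112 counts (8448 CPM), a mean of 9373 ± 1309 CPM (SD, n = 2). Its neighbour Mirlet7f-2 had 4936 counts (4361 CPM) and 14456 counts (4344 CPM), a mean of 4353 ± 12.2 CPM (SD, n = 2), the closest agreement between the pups of any member. Mirlet7f-2 was the highest of the genes with a copied mature sequence. Mirlet7c-2 had 1216 counts (1074 CPM) in pup 1 and 2331 counts (700.5 CPM) in pup 2. By comparison, Mirlet7a-1 had 705 counts (623 CPM) and 1655 counts (497 CPM). The values of Mirlet7c-2 and Mirlet7a-1 do not overlap, but the counts of both are lower limits, as are those of Mirlet7f-2.

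Gm24111 had 0 and 1 counts on its own strand, below the limit for a count of 0 in both libraries. On the opposite strand, which is the strand of Mirlet7f-1, the same row had 343 counts in pup 1 and 781 in pup 2. Read as Mirlet7f-1, this is 303 CPM and 235 CPM, a mean of 269 ± 48.3 CPM (SD, n = 2). No other member had more than 6 opposite-strand counts in a library. Mirlet7f-1 had 0.0695 counts per count of Mirlet7f-2 in pup 1 (95% interval 0.0621 to 0.0775), but 0.0540 in pup 2 (0.0502 to 0.0581), although both genes encode let-7f. The mature sequence is followed by G in the Mirlet7f-1 hairpin and by U in that of Mirlet7f-2, as in the flanks printed above. How the reads of let-7f divide between its copies cannot be told from rows that leave out reads placed at both.

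**Figure D1:**
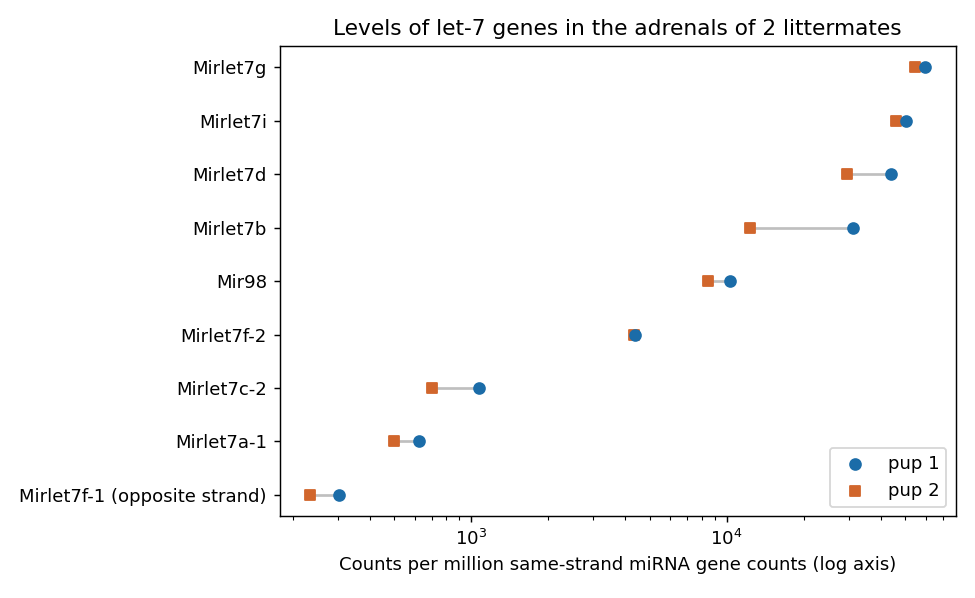
CPM (log axis) of each let-7 gene above 10 CPM in pup 1 (circles) and pup 2 (squares), with a line joining the libraries and Mirlet7f-1 read from the opposite strand of Gm24111. The order of the genes is the same in both pups, from Mirlet7g near 57170 CPM to Mirlet7f-1 near 269 CPM, and the longest line is that of Mirlet7b.

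The order of levels was the same in both pups: Mirlet7g, Mirlet7i, Mirlet7d, Mirlet7b, Mir98, Mirlet7f-2, Mirlet7c-2, Mirlet7a-1 and Mirlet7f-1. Between neighbours in this order only Mirlet7d and Mirlet7b overlapped, since Mirlet7b in pup 1 exceeded Mirlet7d in pup 2. The 5 members with a single-hairpin mature sequence had means from 9373 to 57170 CPM. The copied genes, whose counts are lower limits, lay from 269 to 4353 CPM. Mirlet7a-1 had 1 count for every 70.6 of Mirlet7d in pup 1 and for every 59.3 in pup 2, although both are exonic in the same noncoding RNA.

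Together the 9 rows held 20.13% of all miRNA gene counts in pup 1 (95% interval 20.06 to 20.21), and in pup 2 they held 15.66% (15.62 to 15.70), a mean of 17.9% ± 3.16 (SD, n = 2). Mirlet7b and Mirlet7d carried most of that gap. Their joint share was 7.52% in pup 1 and 4.19% in pup 2, which accounts for 74.5% of the difference in the sum, and Mirlet7b alone accounts for 42.0%. Without both genes the shares were 12.6% and 11.5%. Mirlet7g and Mirlet7i alone made up 11.0% and 10.1% of all miRNA gene counts. Multi-mapped reads, which equal 3.45 times the members' counts in pup 1 and 3.90 times in pup 2, limit these shares. With those reads added to the denominator the members held 11.9% and 9.72%, and if every such read were let-7 they would hold 52.8% and 47.6%.

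The make-up of the family differed between the libraries, each made from both adrenals of a pup. Mirlet7b gave 15.5% of the members' counts in pup 1 (95% interval 15.3 to 15.6), whereas it gave 7.91% in pup 2 (7.84 to 7.99). Mirlet7d gave 21.9% and 18.8%. Mirlet7g gave 29.6% in pup 1 and 35.0% in pup 2 (34.8 to 35.1), and Mirlet7i gave 24.9% and 29.4%. Mir98 gave 5.12% and 5.39%, and Mirlet7f-2 gave 2.17% and 2.77%. Mirlet7c-2 and Mirlet7a-1 were under 1% of the members' counts in both libraries. Since the shares add up to a whole, the higher shares of Mirlet7g and Mirlet7i in pup 2 and the lower ones of Mirlet7b and Mirlet7d are not independent.

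**Figure D2:**
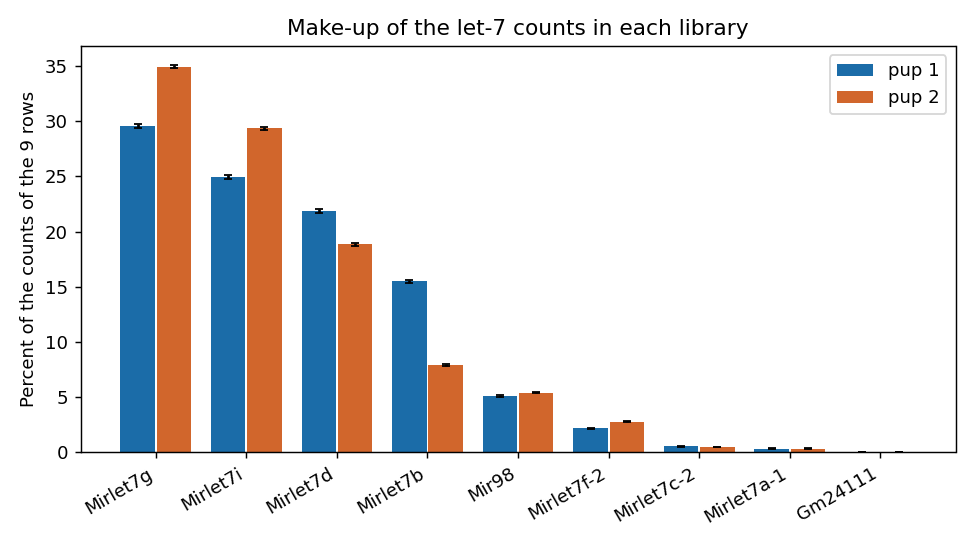
Percent of the counts of the 9 rows that each gene gave in pup 1 and pup 2, with 95% counting intervals as error bars. Mirlet7b stands at 15.5% in pup 1 and 7.91% in pup 2, and Mirlet7g at 29.6% and 35.0%.

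The pups were littermates of the same age, and comparing them gives the spread of let-7 levels between these libraries, in which differences between glands and between library preparations cannot be told apart. All 8 members above 10 CPM had the lower CPM in pup 2, against 41.9% of the 284 miRNA genes above that level, except that Mirlet7f-2 was higher in pup 2 under TMM or DESeq2 scaling (log2 ratio 0.10 and 0.03). Of the 78 genes with at least 1000 CPM on average, 47.4% were lower in pup 2. The members' median log2 ratio of pup 2 over pup 1 was -0.31, computed with 1 CPM added to each value, and the median of all 284 genes was 0.08. Scaling with TMM moved the median of all genes to 0.18 and that of the members to -0.20. The members share a seed, near-identical sequences and in part host transcripts, so they are not independent draws.

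Mirlet7b was the only member at least 2-fold lower in pup 2, a difference that 1.76% of the 284 genes had. Its CPM ratio of pup 2 over pup 1 was 0.397 (95% counting interval 0.392 to 0.403), and by log2 ratio it was the gene number 2 from the lowest of the 284. None of the members was at least 2-fold higher, which 3.52% of the genes were. Mirlet7c-2 had a ratio of 0.652 (0.608 to 0.699) and Mirlet7d of 0.670 (0.663 to 0.678). Mirlet7a-1 followed with 0.798 (0.731 to 0.873) and Mir98 with 0.820 (0.803 to 0.838). Mirlet7i at 0.917 (0.908 to 0.925) and Mirlet7g at 0.918 (0.910 to 0.927) had nearly the same ratio. Mirlet7f-2 stood at 0.996 (0.964 to 1.03), and its interval alone included 1. The counting interval lay wholly below 1 for 7 of the 8 members and for 24.3% of the 284 genes. It lay wholly above 1 for 0 of the 8 members and for 38.7% of the genes. Such intervals narrow as counts rise, and the 8 members ranked from 3 to 105 by mean CPM. Many of the 284 genes had fewer counts and wider intervals, so these shares are not matched to the members for counts. Mirlet7f-1, read from the opposite strand, had a ratio of 0.774 (0.681 to 0.882).

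**Figure D3:**
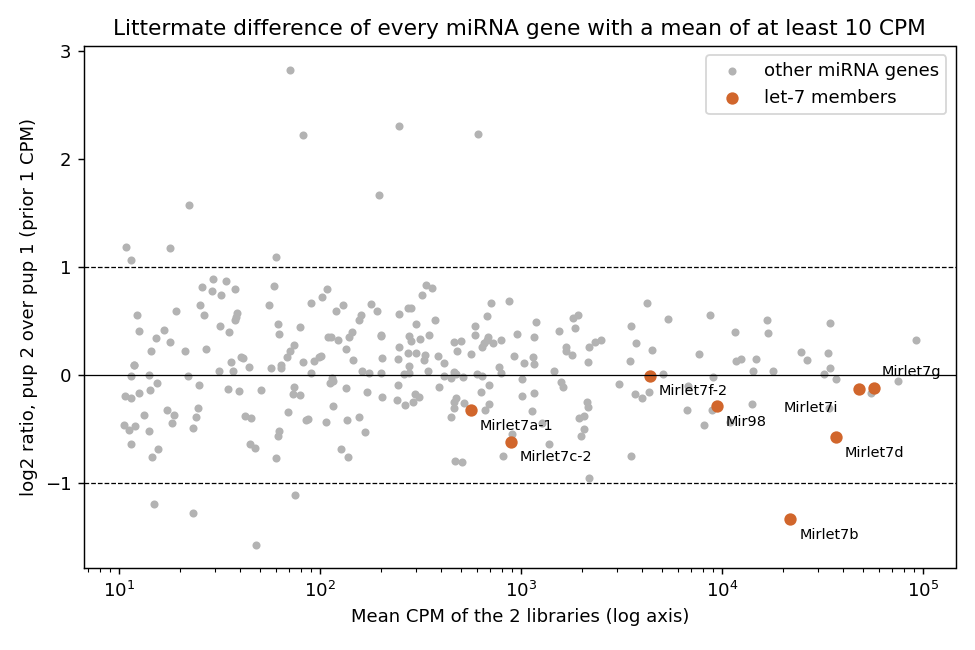
Log2 ratio of pup 2 over pup 1 (1 CPM added) against mean CPM (log axis) for the 284 miRNA genes averaging 10 CPM or more, with the 8 let-7 members in colour. Dashed lines mark 2-fold. With CPM scaling the members lie on or below the line of no difference, Mirlet7f-2 lies above it under TMM or DESeq2 scaling, and Mirlet7b at -1.33 is the only point above 1000 CPM beyond 2-fold.

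Neighbouring members of a cluster were compared within each library, where no scaling is needed. In Lncppara, Mirlet7c-2 had 3.45% of the counts of Mirlet7b in pup 1 and 5.65% in pup 2, so the ratio was 1.64 times as high in pup 2 (95% counting interval 1.53 to 1.76). Both genes were lower in pup 2, and Mirlet7b by more. In Huwe1, Mirlet7f-2 had 42.3% of the counts of Mir98 in pup 1 and 51.4% in pup 2, a ratio 1.21 times as high (1.17 to 1.26). On chromosome 13, the ratio of Mirlet7a-1 to Mirlet7d was 1.19 times as high in pup 2 (1.09 to 1.30) and that of Mirlet7f-1 to Mirlet7d 1.16 times (1.02 to 1.32). Between Mirlet7f-1 and Mirlet7a-1, neighbours at 261 bases that both depend on reads placed at 1 locus, the ratio in pup 2 was 0.970 times that in pup 1 (0.829 to 1.14). In each of the 3 clusters the copied gene thus had a higher CPM ratio of pup 2 over pup 1 than its single-hairpin neighbour. Rows of copied genes leave out multi-mapped reads. Whether the share of their reads left out in this way differed between the libraries was not tested. The unlinked genes Mirlet7i and Mirlet7g kept a ratio 0.998 times as high (0.985 to 1.01).

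**Figure D4:**
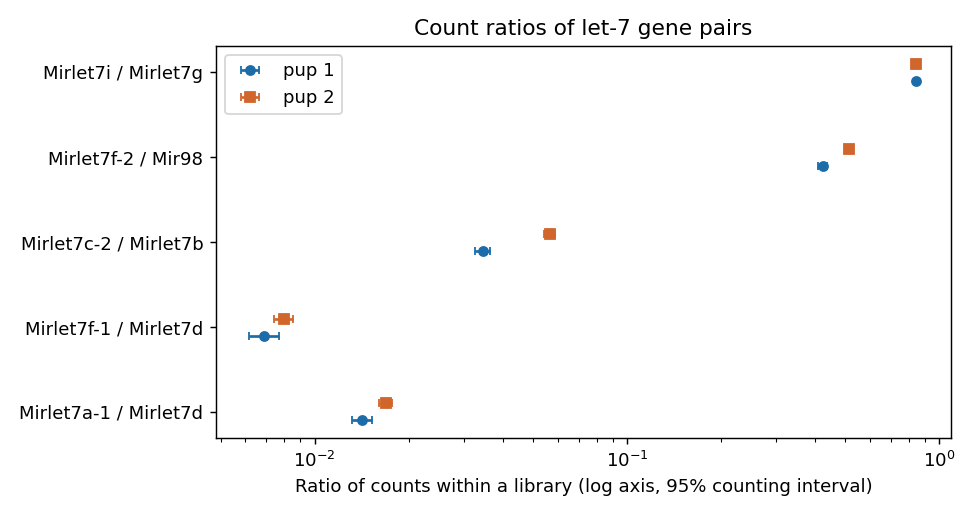
Counts of the first gene per count of the second within each library (log axis, 95% counting intervals), for cluster neighbours and for the unlinked pair Mirlet7i and Mirlet7g. The pups' intervals are apart for Mirlet7c-2 over Mirlet7b, for Mirlet7f-2 over Mir98 and for Mirlet7a-1 over Mirlet7d. They overlap for Mirlet7f-1 over Mirlet7d and for Mirlet7i over Mirlet7g.

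Base composition moved with the littermate ratio across the family. Mature let-7b has 10 G or C bases, the most of the family, and its gene had the lowest ratio. The let-7f and miR-98 sequences have 7, the fewest, and their genes had ratios from 0.774 to 0.996. Genes with 8 (let-7a and let-7g) had ratios from 0.761 to 0.918. Of those with 9, let-7c and let-7d genes with let-7e had ratios from 0.573 to 0.670, while Mirlet7i stood apart at 0.917. Over 12 let-7 genes, those of the clusters of miR-99 with miR-125 included, Pearson r between the log2 ratio and this number was -0.75, and Spearman rho was -0.72. These 12 points come from the same 2 libraries and include copies with the same mature sequence, and the measure was chosen after the ratios were seen. Over the 261 of 284 genes with a RefSeq mature sequence, r with the G and C content of the mature arms was -0.13 and rho was -0.19. The part of base composition in the ratios was not tested.

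**Figure D5:**
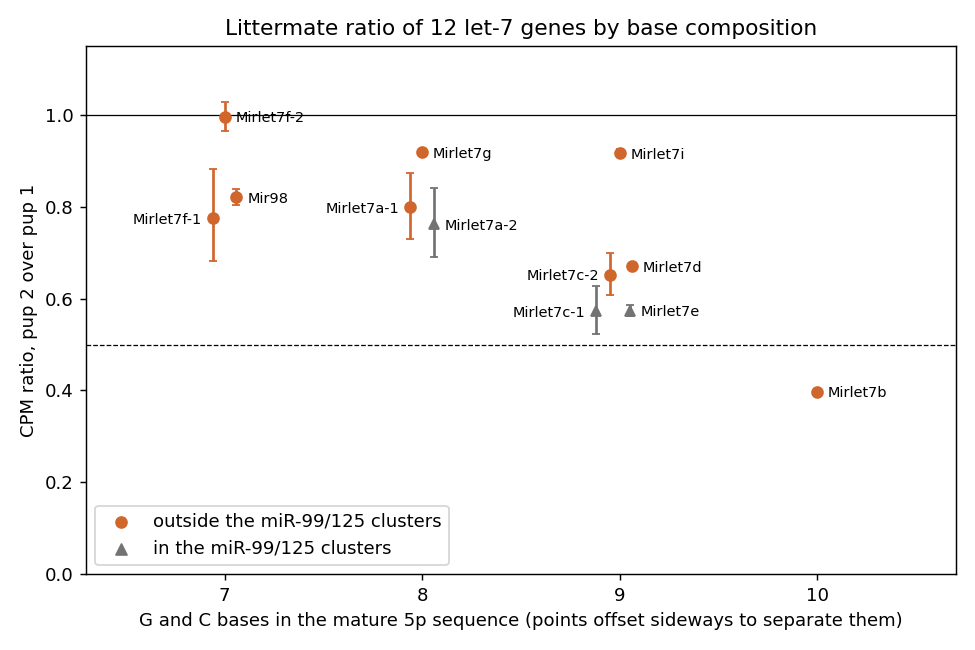
CPM ratio of pup 2 over pup 1 with 95% counting intervals, against the number of G and C bases in the mature 5p sequence, for 12 let-7 genes. Circles are the genes outside the clusters of miR-99 with miR-125 and triangles those inside, Mirlet7b is lowest at 0.397, and Mirlet7i with 9 such bases lies apart at 0.917.

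The hairpins of the members were searched for GGAG, the letters that the zinc knuckles of LIN28 are known to bind in let-7 precursor loops. The search used the hairpin's own strand and found GGAG in 6 of 9 hairpins, those of Mirlet7a-1, Mirlet7d, Mirlet7f-1, Mirlet7f-2, Mirlet7g and Mirlet7i. Of all 1005 RefSeq mouse hairpins, 44.5% contain these letters somewhere. The hairpins of Mirlet7g, the member with the highest CPM, and of Mirlet7b, which differed most between the pups, are printed with GGAG in capitals.
Mirlet7g: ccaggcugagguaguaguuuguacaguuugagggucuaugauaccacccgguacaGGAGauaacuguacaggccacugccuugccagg
Mirlet7b: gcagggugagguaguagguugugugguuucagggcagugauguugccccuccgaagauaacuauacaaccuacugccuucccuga
In Mirlet7g the letters start at base 56 of 88, before the 3p arm. The hairpins without them, those of Mirlet7b, Mirlet7c-2 and Mir98, had littermate ratios of 0.397, 0.652 and 0.820. The members' hairpins with them had ratios from 0.670 to 0.996, so the ranges overlap. Outside the members, the hairpins of Mirlet7e, Mirlet7c-1 and Mirlet7a-2 also contain GGAG, and these genes had ratios of 0.573, 0.573 and 0.761. A match says only that these letters are present, and LIN28 itself was not measured.

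The remaining let-7 genes were also lower in pup 2. Mirlet7e, read like Mirlet7f-1 from the opposite strand of a row across it (Gm25927), had 13886 counts (12269 CPM) and 23408 counts (7034 CPM), a ratio of 0.573 (95% counting interval 0.561 to 0.586). Mirlet7c-1 had a ratio of 0.573 (0.522 to 0.628) and Mirlet7a-2 of 0.761 (0.690 to 0.841), beside 0.652 and 0.798 for their copies among the members. The ratios of copies of the same mature sequence thus lay near each other for let-7a and let-7c, with overlapping intervals, and those of let-7f did not overlap. Beyond the let-7 genes already described, the RefSeq table lists Mir1961 and Mir7k with the same seed, and both had 0 counts in both libraries. Mir7j, named let-7j, has the seed GAGGUAU and was outside the family by this measure, at 21.2 and 37.0 CPM.

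Other miRNAs of the developmental timing pathway and of early embryonic cells were read from lists. The miR-125 genes, relatives of nematode lin-4, were lower in pup 2 in 3 of 3 cases, against 41.9% of the 284 genes. None was 2-fold lower, as 1.76% of the genes were, and the counting interval of Mir125b-2 (0.885 to 1.08) included 1. Mir125a had 12503 and 9276 CPM, a ratio of 0.742. In the list of the miR-290 and miR-302 clusters, known from pluripotent cells and from work that sets them against let-7, all 12 measured genes had a count and 7 reached a mean of 10 CPM. Of these 7, 6 were lower in pup 2 and 1 higher, and none passed 2-fold. The counting interval of the ratio lay wholly below 1 for Mir292 (0.443 to 0.768) and Mir294 (0.493 to 0.705). It included 1 for Mir291a, Mir293, Mir302a, Mir302b and Mir302d, so their direction is open. The most abundant genes of the list were Mir294 with 174 and 102 CPM and Mir292 with 76.0 and 44.2 CPM. Both were below every let-7 member that reached 10 CPM.

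Over the 2 libraries, the gene outside the family nearest to Mirlet7g in log2 CPM was Mir23b, at a Euclidean distance of 0.0908, followed by Mir10a at 0.543 and Mir23a at 0.887. Mirlet7b had no neighbour that close, and the nearest genes were Mir99b at 0.989, Mir139 at 1.03 and Mir127 at 1.17. These neighbours of Mirlet7b had ratios of pup 2 over pup 1 from 0.832 to 1.03, so they resembled it in level and not in the difference between the pups.

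No miRNA on the marker lists is known from the adrenal alone, so the tissue label could not be checked against a defining marker. Mir375, known from neuroendocrine cells, had 37586 and 30415 CPM, and its list of 4 genes had a sum of 39764.5 CPM in pup 1 against 33410 CPM in pup 2, with 2 genes lower and 2 higher. Markers of other cells were also read, and the size and direction of the difference between the pups varied among them. The endothelial Mir126a had 81620.5 and 102288 CPM, and the hepatocyte Mir122 had 2979 and 4081 CPM. The 7 smooth muscle and stroma genes came to 18329.8 CPM in total in pup 1 and to 22857 CPM in pup 2. Most of it was Mir143 with 14704 and 19266 CPM. Of the 5 genes of this list above 10 CPM, 4 were higher in pup 2 and 1, Mir214, was lower with 3146 and 2979 CPM. The 7 epithelial genes summed to 947 and 1309 CPM, most of it Mir203 with 710 and 667 CPM, while the other epithelial genes were all higher in pup 2, among them Mir200b with 28.3 and 136 CPM and Mir429 with 93.7 and 299.6 CPM. The 5 kidney genes summed to 293 and 352 CPM and went both ways: Mir215 had 72.5 and 23.7 CPM and Mir194-1 13.3 and 2.70 CPM, whereas Mir192 had 101 and 158 CPM and Mir204 76.9 and 128 CPM. The genes of the erythroid list summed to 281 and 301 CPM, most of it Mir451a, which was nearly equal at 261 and 263 CPM. The myeloid Mir223 had 704 and 883 CPM. The 6 skeletal muscle genes summed to 84.8 and 415 CPM, nearly all Mir206, while Mir1a-1, Mir133a-1 and Mir133a-2 were at 0 counts in both. Since multi-mapped reads lie outside the gene rows, these 0 counts do not show that the mature miRNAs were absent. The part of the cells marked by these lists in the lower let-7 levels of pup 2 was not tested.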

How the data were processed

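MicroRNA-seq counts of 2 libraries, 1 for each pup, were used. The tables deposited by the authors hold unscaled counts of reads for each miRNA gene in 3 columns with no header, read from their layout as unstranded, same strand and opposite strand. Reads were placed on mm10 with GENCODE M4, per the notes deposited beside the tables. Aligner and trimming: not given in the sources used here. Row names show that multi-mapped reads (34.9% and 32.2% of reads) stay outside gene rows. Identifiers were matched to GENCODE M21 (1894 of 1973 rows). CPM used the same-strand sum. Log2 ratios added 1 CPM, for genes averaging 10 CPM or more. Share intervals are Clopper-Pearson at 95%, ratio intervals exact conditional ones. Ratios and intervals were tested on simulated independent Poisson counts, the model that the intervals assume. That checks the computation and does not cover PCR copies or multi-mapped reads. Scaling factors came from edgeR 4.0.16 and DESeq2 1.42.0, in R 4.3.3 with Python 3.11.15 and scipy 1.17.1. All 12 let-7 hairpins were matched by symbol in the RefSeq table. With 1 group there was no comparison between conditions.

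The members and lists were chosen with earlier results of these data known. Named genes are the members, the other genes of the let-7 family or seed, the miR-125 and pluripotency lists, and the markers. Also named are the 3 genes nearest in log2 CPM to the member with the highest CPM and to the member that differed most.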

Additional observations from a re-analysis of the deposited data

Results flagged for a closer look

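Reads on the strand opposite to a member were above the limit that a count of 0 allows (3 counts) at 2 of the 9 rows. Gm24111 had 343 such reads in pup 1 and 781 in pup 2, on the strand of Mirlet7f-1. Mirlet7b had 6 opposite-strand reads in pup 2, beside 41233 on its own strand.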

How the results depend on the processing

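The members' summed share was 10.8% with multi-mapped reads in the denominator and 50.2% in the bound, chosen after seeing the data, that counts them all as let-7, against 17.9% as reported. It ran from 15.7% to 20.1% when either pup was left out, and the median member level ran from 10419 to 20737 CPM against 15578 CPM. The median log2 ratio of -0.31 became -0.20 with TMM scaling, whose construction shifts all ratios alike, and lay between -0.38 and -0.27 under the other alternatives run (DESeq2 factors, a total without let-7 genes, priors of 0.5 and 5 CPM, no filter, a 100 CPM filter, the unstranded column). Under all of these 1 member, Mirlet7b, was at least 2-fold lower in pup 2, as 1.76% of the 284 genes were with CPM scaling. Of 8 members, 7 were lower with TMM or DESeq2 factors, against 34.2% and 38.4% of all genes in those settings. Otherwise 8 were lower, against 40.4% to 49.3% of all genes. In the unstranded column Gm24111 joined them as a ninth row, lower in pup 2, and without a filter it joined with its single count, higher in pup 2. With the stand-in for Mirlet7f-1, added after seeing the data, 9 of 9 were lower, against 41.9% of the 284 genes. The ratio of Mirlet7c-2 to Mirlet7b was 1.64 times as high in pup 2 in the unstranded column too. How many multi-mapped reads are let-7 was not tested, and the own-strand counts of Gm24111 (0 and 1) were too low to give a level.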

Other observations

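Gm24111 was 1 of 11 rows that had at least 100 opposite-strand counts over both libraries and fewer on their own strand. Each of the 11 lies across an annotated miRNA gene that has no row of its own. Beside Mirlet7f-1 and Mirlet7e these include Mir191, a widely expressed miRNA read through Gm24083 with 4890 and 12902 counts, and Mir409 of the Dlk1-Dio3 locus, read through Gm24321 with 9500 and 30339 counts. These genes were chosen after their values were seen. None of these counts enters the totals used for CPM.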
